A study of Mus musculus with 10 samples.

Results

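GS cells are germline stem cell lines kept in culture, and established GS cells were compared with spermatogonial stem cell cultures that were 3 weeks old. The comparison holds 4 of the 10 arrays of the series: 2 of GS cells and 2 of 3 week cultures, taken by their sample titles. The 3 week arrays held adult DBA/2 mouse testis cells, enriched magnetically with an antibody to the surface protein CD9 and then cultured for 3 weeks. The GS cell arrays held DBA/2 GS cells, for which neither the time in culture nor the origin of the line is labelled. The culture medium, built on Iscove's, held rat GDNF at 15 ng/ml, human FGF2 at 10 ng/ml and fetal bovine serum at 1%. Feeder cells are not mentioned in the labels. The other arrays, 2 each at 0, 1 and 2 weeks, were used for the error of the fit and for a second-week comparison that shares no array with this one. No label says that the 2 arrays of a group came from separate cultures or mice, so the p-values reflect only how far these arrays spread, which may be technical. The comparison bears on how cultures still being established differ from established ones.

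Spermatogonial stem cells are the rare testis cells that renew themselves and give rise to sperm. GDNF from Sertoli cells binds the co-receptor GFRA1 and the receptor kinase RET, FGF2 binds FGF receptors, and both signal through RAS and ERK and through PI3K and AKT to keep the cells dividing without differentiating. The transcription factors ETV5 and BCL6B act downstream of GDNF in this self-renewal, while KIT and STRA8 mark the step towards differentiation and meiosis. Cultures started from testis also hold somatic cells such as fibroblasts, myoid cells and macrophages, and GS cells are in general practice grown on fibroblast feeders or on laminin.

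Values are the deposited linear signals of single arrays, in the order replicate 1, replicate 2. Changes are log2 signal in GS cells minus log2 signal at 3 weeks, with their SE and n = 2 arrays per group. The SE uses the spread of each gene within all 5 groups, moderated by limma, and not that of these 4 arrays alone. It can therefore be too small where the 2 arrays of a group here differ widely. A change passed where limma's Benjamini-Hochberg adjusted p over all 20174 genes was under 0.05. Of these genes 6038 rose (29.9%) and 3470 fell (17.2%). At least 2-fold rises were 720 (3.57%) and at least 2-fold falls 196 (0.972%). The median change of all genes was 0.021. Each list of genes below is read against these shares, and lists of bright or dim genes also against the shares by signal level given next. The arrays were alike in overall brightness, with median signals of 125.3 and 120.2 at 3 weeks and 120.9 and 114.1 in GS cells. The lower quartiles were 73.7 and 70.6 at 3 weeks and 65.4 and 61.2 in GS cells, and the upper quartiles 254.7 and 262.3 against 294.4 and 303.7. GS cell arrays were thus dimmer at the low end and brighter at the high end. The signals come without a background level, so dim genes, those near the lower quartile, are not shown to be expressed. Across genes, which are not independent replicates, the 2 arrays of each group correlated with r = 0.992 (3 weeks) and 0.991 (GS cells), and arrays of different groups with r = 0.941 to 0.952.

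Rises and falls lay at different signal levels. Of the 3914 genes with a mean signal below 64 on the 4 arrays, 35 rose (0.894%) and 1191 fell (30.4%). Of the 4257 genes from 64 to 100, 306 rose (7.19%) and 1154 fell (27.1%). Of the 3498 genes between 200 and 400, 2087 rose (59.7%) and 201 fell (5.75%), with a median change of 0.348. Of the 2501 genes between 400 and 1000, 1626 rose (65.0%) and 123 fell (4.92%), with a median change of 0.383. Of the 759 at 1000 or more, 425 rose and 50 fell. The plot of change against signal shows this tilt together with 4 gene groups described below.

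**Figure D1:**
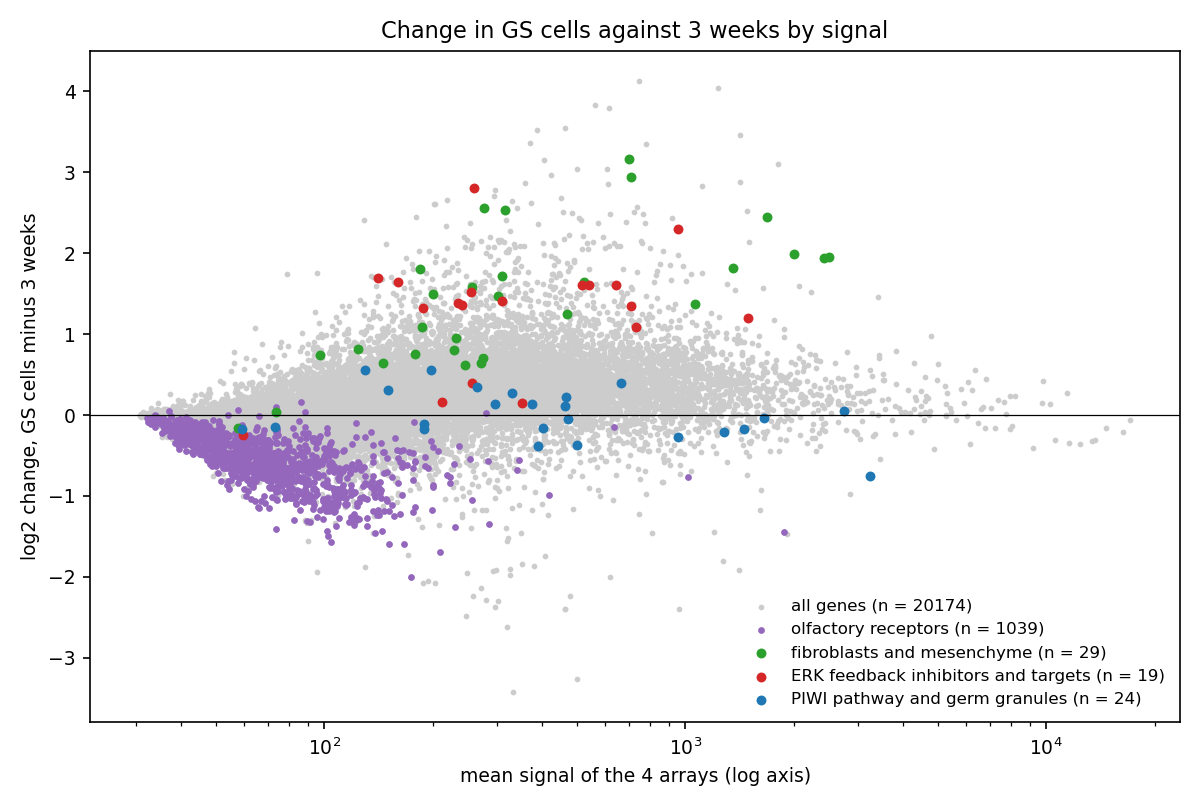
Log2 change in GS cells against 3 weeks (vertical axis) by the mean signal of the 4 arrays (horizontal log axis), 1 point per gene. Fibroblast (green) and ERK feedback genes (red) lie mostly above 0, PIWI pathway genes (blue) scatter around 0, and olfactory receptor genes (purple) lie below 0 at low signals.

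Both groups carried the germ cell genes that their label calls for. Dazl, an RNA-binding protein gene of germ cells, measured 2548 and 2854 at 3 weeks and 2562 and 3056 in GS cells. Ddx4, a germ cell helicase gene, measured 1496 and 1587 at 3 weeks and 1246 and 1512 in GS cells. Sall4, a transcription factor gene of undifferentiated spermatogonia, measured 811 and 779.9 at 3 weeks and 905 and 822 in GS cells, and none of these 3 genes passed (0.05 ± 0.10, adjusted p = 0.7; -0.17 ± 0.11, adjusted p = 0.25; 0.12 ± 0.08, adjusted p = 0.23). Ddx4 passed as a fall with quantile and cyclic loess scaling (-0.31 and -0.42), and Sall4 as a rise with median scaling (0.18). Prm1 and Tnp1 are spermatid genes that package sperm DNA. Prm1 measured 141 and 123 at 3 weeks and 109.8 and 98.8 in GS cells, near the medians of the arrays. Tnp1 was dim, at 50.7 and 50.04 at 3 weeks and 51.8 and 48.2 in GS cells.

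Mesenchymal genes had the highest median of the 50 lists as deposited and with quantile scaling, while with cyclic loess scaling that of ERK feedback genes (1.17) was higher. Of 29 fibroblast and mesenchyme genes measured, 27 rose, 0 fell and 2 did not pass, with a median change of 1.47 (1.32 with quantile and 1.15 with cyclic loess scaling). Their summed signal was 8158 and 10843 at 3 weeks and 32649 and 35446 in GS cells, so the GS cell arrays lay above both 3 week arrays and the second 3 week array above the first. In earlier cultures the same sum was 92925 and 94021 at 1 week and 16412 and 16584 at 2 weeks. In bulk RNA, more cells of a type and more RNA per cell cannot be told apart. The part of mesenchymal cells in the results that follow was not tested.

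Lox, which encodes the enzyme that cross-links collagen, measured 191 and 287 at 3 weeks and 1899.8 and 2309 in GS cells (3.16 ± 0.17, adjusted p = 1.1e-06). Its lowest GS cell value was above the higher 3 week value. Fbln2, the gene of the matrix glycoprotein fibulin 2, measured 247 and 265 at 3 weeks and 1856 and 2072 in GS cells (2.94 ± 0.08, adjusted p = 7.6e-08). Prrx1, a mesenchymal transcription factor gene, rose by 2.56 ± 0.12, Cdh11, a mesenchymal cadherin gene, by 2.54 ± 0.11, and Bgn, the proteoglycan biglycan gene, by 2.45 ± 0.25. Bgn also shows the spread at 3 weeks, at 518 and 1007, against 3654 and 4245 in GS cells. Col1a1 and Col1a2, the chains of collagen I, rose by 1.37 ± 0.09 and 1.25 ± 0.09, Pdgfrb, a PDGF receptor gene of mesenchyme, by 1.49 ± 0.09 and Pdgfra by 0.76 ± 0.08. Myoid and smooth muscle genes rose in 9 of 14 cases and fell in 0 (median 0.66). Acta2, smooth muscle actin, measured 213 and 429 at 3 weeks and 1678 and 1766 in GS cells (2.51 ± 0.25, adjusted p = 3.7e-05). Cald1, Tpm1, Tagln and Myl9, contractile and actin-binding protein genes, rose by 1.97 ± 0.12, 1.95 ± 0.10, 1.79 ± 0.09 and 1.58 ± 0.19. Myh11, the heavy chain of smooth muscle myosin, measured 106 and 99 at 3 weeks and 99.2 and 89.5 in GS cells and did not pass (-0.12 ± 0.12, adjusted p = 0.43).

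The 12 largest rises, by the rule for named genes, began with Ptgs2, Tnc and Il1rl1. Ptgs2, the inducible prostaglandin synthase gene, measured 158 and 200.2 at 3 weeks and 2785 and 3465 in GS cells (4.13 ± 0.12, adjusted p = 1.1e-07). Tnc, the matrix protein tenascin C gene, measured 264 and 351 at 3 weeks and 4553 and 5491 in GS cells (4.04 ± 0.13, adjusted p = 1.6e-07). Il1rl1, the interleukin 33 receptor gene, measured 132 and 168 at 3 weeks and 1916 and 2357 in GS cells (3.84 ± 0.14, adjusted p = 2.1e-07). For all 3 the lower GS cell array stood more than 10-fold above the higher 3 week array. Serpinb2, a plasminogen activator inhibitor gene, rose by 3.79 ± 0.21, and the collagenase and stromelysin genes Mmp13 and Mmp3 by 3.52 ± 0.08 and 3.35 ± 0.10. The matricellular genes Thbs1, Ccn1 and Spp1 rose by 3.46 ± 0.16, 3.36 ± 0.13 and 3.11 ± 0.16, and Itga5, the fibronectin receptor integrin gene, by 3.15 ± 0.13. Mpzl2, an epithelial adhesion molecule gene, rose by 3.55 ± 0.15, and unlike the others of the 12 it had also risen over the second week of culture (1.34). The 11 others had fallen then, and all 11 were highest at 1 week.

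**Figure D2:**
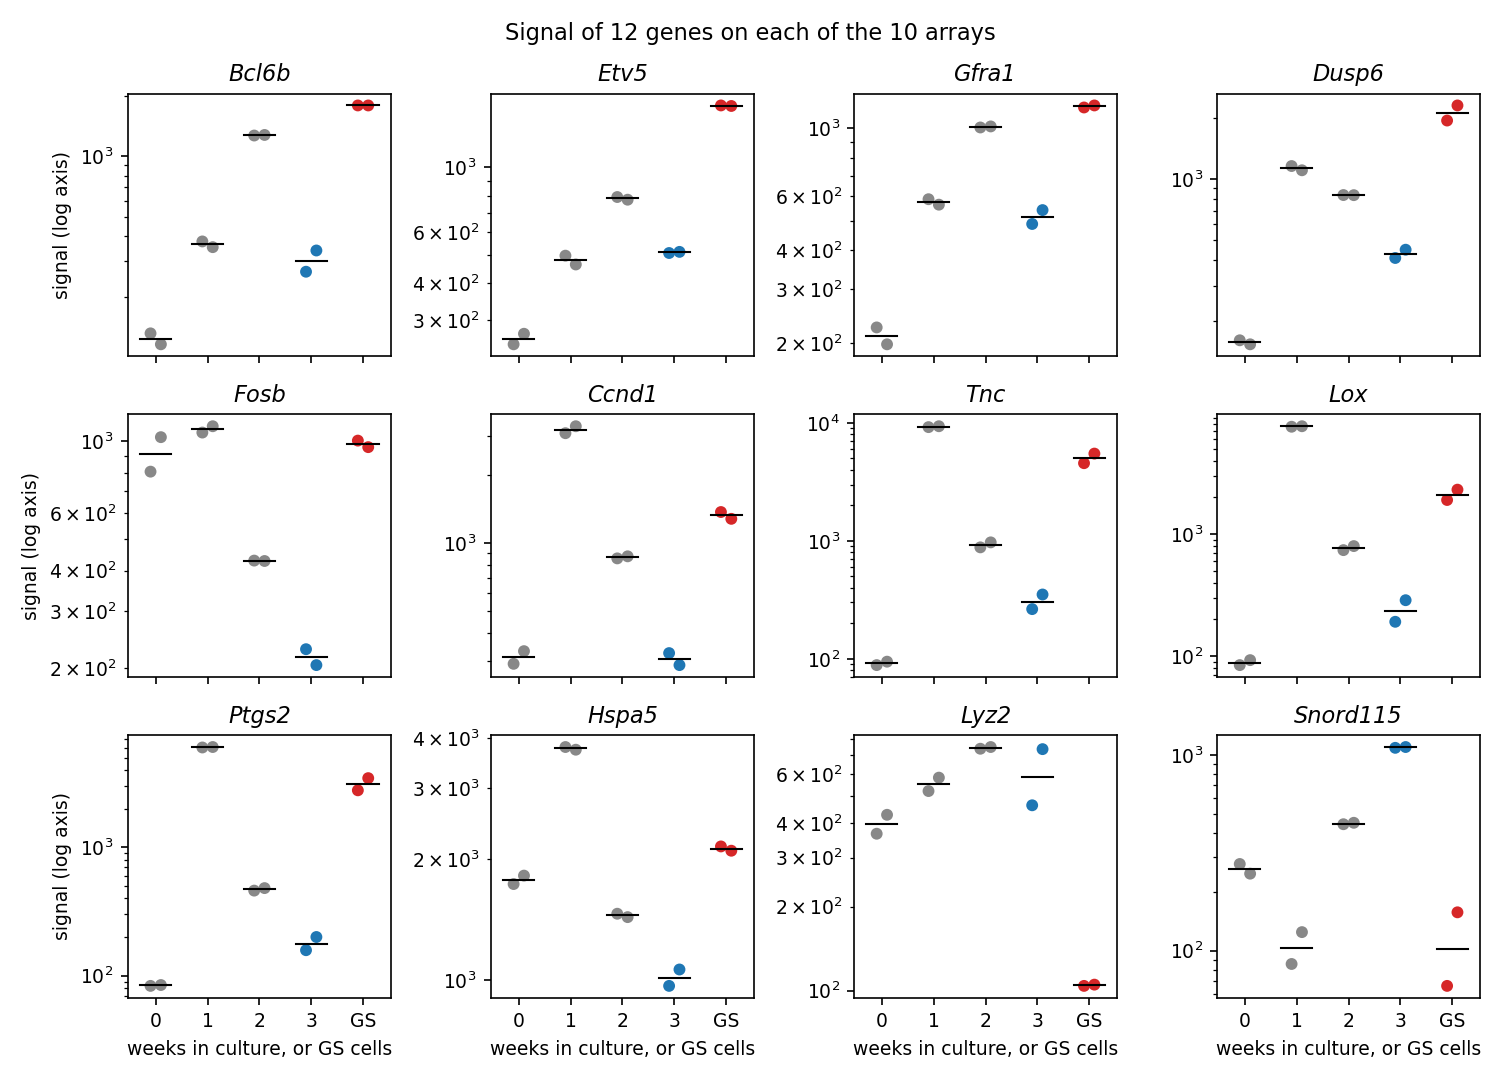
Signal on each of the 10 arrays (vertical log axis, scaled per panel) for 12 genes by weeks in culture or in GS cells. Points are single arrays, lines are geometric means of 2 arrays; Bcl6b, Etv5, Gfra1 and Dusp6 reached their highest values in GS cells, Tnc, Lox, Ptgs2 and Hspa5 theirs at 1 week, and Snord115 was highest at 3 weeks.

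Receptor and adaptor genes for the growth factors in the medium rose more often than they fell, as did all genes of like signal. Of all genes at 200 to 400, 59.7% rose and 5.75% fell (median 0.348). Among 19 GDNF and FGF receptor and adaptor genes, 13 rose, 1 fell and 5 did not pass (median 0.34). With quantile scaling 10 rose and 1 fell (median 0.18), and with cyclic loess 9 rose and 1 fell (median 0.12). Gfra1, the GDNF co-receptor gene, measured 487 and 541 at 3 weeks and 1166 and 1184 in GS cells (1.19 ± 0.08, adjusted p = 4.4e-06). Ret, the gene of the kinase that signals with it, measured 887 and 802 at 3 weeks and 1477 and 1504 in GS cells (0.82 ± 0.07, adjusted p = 2.4e-05), or 0.51 with cyclic loess scaling. For both genes the GS cell arrays were alike and separate from 3 weeks. Shc1, an adaptor gene of receptor kinases, rose by 1.61 ± 0.11, Fgfr1 by 1.17 ± 0.08, Ncam1, an alternative GDNF co-receptor gene, by 1.00 ± 0.08 and Ptpn11, the phosphatase gene of RAS activation, by 0.91 ± 0.10. Fgfr1 measured 301 and 349.6 at 0 weeks, 3022 and 2844 at 1 week, 556 and 548 at 2 weeks, 494 and 495 at 3 weeks and 1135 and 1096 in GS cells, so its GS cell level lay well below that of 1 week.

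Genes downstream of GDNF in spermatogonia, by the list used, included the transcription factors of self-renewal. Of 24 such genes 15 rose, 4 fell and 5 did not pass, with a median of 0.76 (0.61 and 0.58 with quantile and cyclic loess scaling). Bcl6b, the gene of a transcriptional repressor needed for self-renewal, measured 132 and 116 at 0 weeks, 377 and 353 at 1 week, 1267 and 1275 at 2 weeks, 267 and 340.2 at 3 weeks and 1787 and 1787 in GS cells (2.57 ± 0.11, adjusted p = 4.2e-07). Etv5, the gene of an ETS factor of self-renewal, measured 247 and 269 at 0 weeks, 498 and 464 at 1 week, 791 and 774 at 2 weeks, 508 and 513 at 3 weeks and 1629.5 and 1623 in GS cells (1.67 ± 0.07, adjusted p = 3.9e-07). Both genes were therefore highest in GS cells, lower at 3 weeks than at 2 weeks, and without overlap of GS cells and 3 weeks. Lhx1, a homeobox gene induced by GDNF, measured 112 and 90.7 at 0 weeks, 140.2 and 144 at 1 week, 582 and 563 at 2 weeks, 195 and 194 at 3 weeks and 498 and 529 in GS cells (1.40 ± 0.10, adjusted p = 4.5e-06), which was close to its 2 week level. Etv4, the relative of Etv5, rose by 1.53 ± 0.08 and Nefm, a neurofilament gene, by 1.87 ± 0.17. Pou3f1, a POU factor gene downstream of GDNF, rose by 0.55 ± 0.07, or 0.24 with cyclic loess scaling. Ccnd2, the gene of cyclin D2, measured 1256 and 1381 at 3 weeks and 3781 and 3759.8 in GS cells (1.52 ± 0.07, adjusted p = 6e-07), though the average of its clusters gave 0.80. Id4, a marker gene of the stem cell fraction, measured 224 and 286 at 3 weeks and 320.3 and 308 in GS cells and did not pass (0.31 ± 0.13, adjusted p = 0.076). Over the other settings its adjusted p ran from 0.017, without the second 3 week array (0.49), to 0.76, with cyclic loess scaling (0.056). Nanos2, an RNA-binding protein gene of stem spermatogonia, measured 113 and 113 at 3 weeks and 123 and 108 in GS cells and did not pass (0.03 ± 0.09, adjusted p = 0.8).

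The feedback inhibitors that ERK signalling switches on rose nearly throughout. Among 19 ERK feedback and target genes 16 rose, 1 fell and 2 did not pass, with a median of 1.39. Dusp6, the gene of an ERK phosphatase, measured 161 and 154 at 0 weeks, 1159 and 1105 at 1 week, 835 and 834 at 2 weeks, 409.6 and 449.8 at 3 weeks and 1938 and 2299 in GS cells (2.30 ± 0.09, adjusted p = 2.7e-07). Its GS cell arrays lay above those of every other group. Dusp4, another ERK phosphatase gene, measured 114 and 84.8 at 3 weeks and 646 and 735 in GS cells (2.81 ± 0.13, adjusted p = 4.7e-07). Spred2, an inhibitor gene of RAS signalling, rose by 1.61 ± 0.08, Myc by 1.70 ± 0.11 and Phlda1, an early growth factor target, by 1.65 ± 0.15. Dusp4, Spred2 and Myc were higher at 1 week than in GS cells.

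Every one of the 21 immediate early genes measured rose (median 1.19), and 19 still did with quantile and 17 with cyclic loess scaling. These genes respond to growth factors and to the handling of cells within minutes. Fosb, a subunit gene of the AP-1 factor, measured 229 and 205 at 3 weeks and 1003 and 958 in GS cells (2.18 ± 0.11, adjusted p = 8.1e-07). Fos measured 174 and 143 at 3 weeks and 588 and 463 in GS cells (1.73 ± 0.15, adjusted p = 1.8e-05). Dusp1, a stress kinase phosphatase gene, measured 476 and 389.9 at 3 weeks and 1853 and 1665 in GS cells (2.03 ± 0.10, adjusted p = 8.5e-07), and Zfp36, a gene for an mRNA decay factor, rose by 1.45 ± 0.12. Their 3 week arrays were the lowest of the time course for Fosb, Fos and Zfp36.

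Genes of undifferentiated spermatogonia rose more often than they fell, but no more often than all genes of like signal. Of all genes at 200 to 400, 59.7% rose and 5.75% fell (median 0.348). Of the 36 spermatogonial genes measured, 17 rose (47.2%), 5 fell (13.9%) and 14 did not pass (median 0.32). Of these 36, 8 belong to the GDNF list as well. Quantile scaling gave a median of 0.21 (18 rose and 5 fell) and cyclic loess one of 0.22 (18 rose and 5 fell). Mcam, a surface adhesion molecule gene of spermatogonia and vessels, measured 498 and 548 at 0 weeks, 697 and 698 at 1 week, 1928 and 1954 at 2 weeks, 1206 and 1173 at 3 weeks and 3596 and 3562 in GS cells (1.59 ± 0.07, adjusted p = 4e-07), with its highest value in GS cells. Foxc2, a forkhead gene of quiescent spermatogonia, measured 167 and 188 at 3 weeks and 472 and 579 in GS cells (1.56 ± 0.12, adjusted p = 7.2e-06). Thy1 rose by 1.58 ± 0.07 and Cd9, the gene of the sorted protein, by 1.32 ± 0.09, and both genes are also expressed in fibroblasts. Zbtb16, the gene of the spermatogonial factor PLZF, measured 1999.5 and 2045 at 3 weeks and 1618 and 1676 in GS cells and fell (-0.30 ± 0.06, adjusted p = 0.0033), at adjusted p = 0.050 in a fit of these 4 arrays alone. Epcam, an epithelial surface gene of spermatogonia, measured 506 and 602 at 3 weeks and 664 and 574 in GS cells, and its groups overlapped (0.16 ± 0.12, adjusted p = 0.3).

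Differentiation genes went both ways. Of 16 genes of differentiating spermatogonia 5 rose, 5 fell and 6 did not pass, with a median of 0.12. The list median was 0.054 with quantile scaling, where 7 rose and 5 fell, and -0.031 with cyclic loess, where 7 rose and 5 fell. Kit, the stem cell factor receptor gene, measured 237 and 244 at 3 weeks and 194 and 183 in GS cells and fell (-0.35 ± 0.09, adjusted p = 0.0074). Stra8, the retinoic acid target needed for meiosis, measured 85.6 and 91.2 at 3 weeks and 66.5 and 64.5 in GS cells and fell (-0.43 ± 0.07, adjusted p = 0.00068), at signals near the lower quartile. Sohlh1, a helix-loop-helix gene of differentiation, measured 410.5 and 348 at 3 weeks and 225 and 202 in GS cells (-0.83 ± 0.11, adjusted p = 0.00021). Its partner gene Sohlh2 moved the other way, from 299.9 and 317 to 719 and 839 (1.33 ± 0.08, adjusted p = 2.6e-06). Ccnd1, cyclin D1, measured 290.4 and 331 at 0 weeks, 3080.2 and 3308 at 1 week, 855 and 873 at 2 weeks, 324 and 287 at 3 weeks and 1374 and 1282 in GS cells (2.12 ± 0.09, adjusted p = 4e-07), so it was highest at 1 week. Tex101, a germ cell surface gene, rose by 0.82 ± 0.11 and Crabp1, a retinoic acid binding protein gene, by 0.56 ± 0.10.

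Later germ cell genes went both ways. Among 33 genes of meiotic prophase 6 rose, 4 fell and 23 did not pass (median -0.032). With quantile scaling 4 rose and 6 fell (median 0.035), and with cyclic loess 3 rose and 7 fell (median -0.005). Tex15 and Mei4, genes of meiotic recombination, fell by 0.88 ± 0.10 and 0.55 ± 0.07, whereas Brip1, a helicase gene of DNA repair, and Mlh3, a mismatch repair gene, rose by 0.66 ± 0.10 and 0.47 ± 0.07. Hormad2, a chromosome axis gene, rose by 0.40 ± 0.14, a call lost with cyclic loess scaling (0.43), in a fit of these 4 arrays alone, without the first 3 week array (0.32), without the second 3 week array (0.47) and without the second GS cell array (0.13). Sycp3 lay on no cluster with a single symbol. Of all genes at 64 to 100, 7.19% rose and 27.1% fell, and below 64, 0.894% rose and 30.4% fell. Of 37 spermatid genes, of which 31 had mean signals under 100, 0 rose, 12 fell (32.4%) and 25 did not pass (median -0.17). With quantile scaling 0 rose and 4 fell (median -0.027), and with cyclic loess 0 rose and 12 fell (median -0.15). Odf1, a sperm tail gene, measured 133 and 124 at 3 weeks and 87.1 and 77.4 in GS cells, against 4000.1 and 3920 at 0 weeks, and fell by 0.64 ± 0.08. Hspa1l, Fabp9 and Meig1, genes of late spermatogenesis, fell by 0.80 ± 0.08, 0.63 ± 0.07 and 0.58 ± 0.08, and Smcp by 0.46 ± 0.13, a call lost with quantile scaling (-0.29), without the first 3 week array (-0.38) and without the second GS cell array (-0.33). Hspa1l, the brightest of these 4, measured 161 and 157 at 3 weeks and 93.5 and 89.1 in GS cells, against 3353 and 3313 at 0 weeks, and its clusters averaged -0.42. For PIWI pathway and germ granule genes, which silence transposons, 5 rose, 6 fell and 13 did not pass of 24 measured (median -0.044). With quantile scaling 3 rose and 9 fell (median -0.13), and with cyclic loess 2 rose and 11 fell (median -0.19). The median was 0.02 with median scaling. Mael, a gene needed for piRNA production, measured 4296 and 4144 at 3 weeks and 2273 and 2743 in GS cells (-0.76 ± 0.12, adjusted p = 0.00082). Tdrd1 and Tdrd5, Tudor domain genes of germ granules, fell by 0.38 ± 0.08 and 0.37 ± 0.09, and the call of Tdrd5 was lost with median scaling (-0.30), in a fit of these 4 arrays alone, without the second 3 week array (-0.28) and without the first GS cell array (-0.26). Dnd1, an RNA-binding protein gene, and Piwil1 rose by 0.56 ± 0.09 and 0.56 ± 0.07.

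Some pluripotency genes were higher in GS cells at modest signals. Of 27 measured 11 rose, 5 fell and 11 did not pass (median 0.12, and -0.015 without the first GS cell array). By quantile scaling 10 rose and 5 fell (median 0.09), and by cyclic loess 8 rose and 4 fell (median 0.069). Pou5f1, the gene of OCT4, measured 154 and 131 at 3 weeks and 302 and 377 in GS cells (1.25 ± 0.13, adjusted p = 4.9e-05). Dppa4, a chromatin protein gene of pluripotent and germ cells, measured 199 and 199 at 3 weeks and 436 and 458 in GS cells (1.17 ± 0.07, adjusted p = 1.6e-06). Sox2 measured 70.0 and 74.1 at 3 weeks and 131 and 181 in GS cells (1.10 ± 0.14, adjusted p = 0.00016), so its 3 week values lay around the lower quartile. Tcl1, an AKT co-activator gene, rose by 0.91 ± 0.12, and Tdgf1, a NODAL co-receptor gene, fell by 0.77 ± 0.09. Of 22 retinoic acid genes 9 rose, 1 fell and 12 did not pass (median 0.13). In this list 8 rose and 1 fell with quantile scaling (median 0.13) and 6 rose and 3 fell with cyclic loess (median 0.053). The retinoid X receptor genes Rxrg and Rxra rose by 1.04 ± 0.10 and 0.48 ± 0.07, and the enzyme genes Rdh11 and Aldh1a3 by 0.41 ± 0.06 and 0.37 ± 0.09. The call of Rxra was lost with cyclic loess scaling (0.18).

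DNA methylation genes included Uhrf1, the factor that recruits the maintenance methyltransferase to replicating DNA, which measured 439 and 468 at 3 weeks and 946 and 958 in GS cells (1.07 ± 0.08, adjusted p = 6.2e-06). Dnmt1, that methyltransferase, measured 742 and 827 at 3 weeks and 1156 and 1143 in GS cells (0.55 ± 0.08, adjusted p = 0.00033), or 0.24 with cyclic loess scaling. Of the 16 genes of the list 7 rose, 3 fell and 6 did not pass (median 0.23). Quantile scaling gave a median of 0.12 (6 rose and 2 fell) and cyclic loess one of 0.092 (6 rose and 3 fell). Mbd3 and Mbd2, methyl-binding protein genes, rose by 0.64 ± 0.07 and 0.42 ± 0.09, and Zfp57, a guardian of imprints, by 0.53 ± 0.07. The call of Mbd2 was lost with quantile scaling (0.18) and with cyclic loess scaling (0.089). Among 24 imprinted genes 11 rose, 3 fell and 10 did not pass (median 0.21). Igf2, the gene of insulin-like growth factor 2, measured 298 and 308 at 0 weeks, 3296 and 3227 at 1 week, 1179 and 1164 at 2 weeks, 479 and 487 at 3 weeks and 1025 and 1115 in GS cells (1.15 ± 0.07, adjusted p = 1.8e-06). Meg3, a maternally expressed long RNA, measured 286 and 299.7 at 0 weeks, 2742 and 2583 at 1 week, 268 and 279 at 2 weeks, 271 and 279 at 3 weeks and 654 and 582 in GS cells (1.17 ± 0.08, adjusted p = 3.6e-06). Both were highest at 1 week, as the fibroblast sum was, and a link was not tested. Gnas, Ndn and Grb10 rose by 1.21 ± 0.08, 0.99 ± 0.09 and 0.97 ± 0.09. Of 42 histone genes 16 rose, 5 fell and 21 did not pass (median 0.14). The list median was 0.10 with quantile scaling, where 12 rose and 4 fell, and 0.072 with cyclic loess, where 12 rose and 7 fell. H2bc4 measured 230.4 and 370 at 3 weeks and 957 and 1567 in GS cells (2.07 ± 0.25, adjusted p = 0.00013), or 1.00 as the average of its clusters. H1f0, H1f5 and H1f10, linker histones, rose by 1.08 ± 0.09, 1.04 ± 0.15 and 0.86 ± 0.08, and H3f3b by 0.86 ± 0.08. Histone genes share closely similar sequence, so their signals may mix.

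DNA replication genes rose as a majority, as did all genes of like signal. Of 36 measured 29 rose (80.6%), 0 fell and 7 did not pass (median 0.45). Among all genes 59.7% rose at 200 to 400 (median 0.348) and 65.0% at 400 to 1000 (median 0.383). The mitosis and G1 lists below lie at like signals and are read against the same shares. With quantile scaling 20 rose and 1 fell (median 0.28), and with cyclic loess 16 rose and 2 fell (median 0.21). Mcm4, a subunit gene of the replicative helicase, measured 441 and 457 at 3 weeks and 978 and 1186 in GS cells (1.26 ± 0.10, adjusted p = 1.1e-05). Rrm2, a subunit gene of ribonucleotide reductase, measured 128 and 148 at 3 weeks and 335 and 303 in GS cells (1.21 ± 0.08, adjusted p = 5e-06). Tk1, thymidine kinase, rose by 0.83 ± 0.08, and the clamp loader genes Rfc2 and Rfc3 by 0.80 ± 0.08 and 0.72 ± 0.10. Mcm6, a further helicase subunit gene named for its promoter, measured 477 and 548 at 3 weeks and 851 and 775 in GS cells and rose by 0.67 ± 0.08. Mitosis genes had a lower median. Of 37 measured 15 rose, 2 fell and 20 did not pass (median 0.19). With quantile scaling 8 rose and 7 fell (median 0.018), and with cyclic loess 7 rose and 8 fell (median -0.033). Ccna2, cyclin A2, measured 794 and 899 at 3 weeks and 1259 and 1252 in GS cells (0.57 ± 0.09, adjusted p = 0.00064), or 0.27 with cyclic loess. Incenp and Birc5 of the chromosomal passenger complex rose by 0.61 ± 0.11 and 0.49 ± 0.07, Cdc25b, a phosphatase gene of mitotic entry, by 0.54 ± 0.10, and Ccnb2, cyclin B2, by 0.48 ± 0.07. In the G1 list 12 rose (63.2%), 2 fell and 5 did not pass of 19 (median 0.49). By quantile scaling 12 rose and 2 fell (median 0.32), and by cyclic loess 11 rose and 2 fell (median 0.28). Beside the D cyclins, Ccne1, cyclin E1, rose by 0.91 ± 0.07, and so did the cell cycle inhibitors Cdkn1a and Cdkn2b by 0.98 ± 0.10 and 0.92 ± 0.09.

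Promoters of replication genes often carry an E2F element, searched here as TTTNNCGC on both strands, and Rfc3 and Mcm6 are shown as members of the list with matches. The windows run from 250 bases before to 50 bases after the RefSeq start on GRCm38.p6, and capitals mark the matches. The Rfc3 window is chr5:151651159-151651458 on the minus strand and the Mcm6 window chr1:128359656-128359955 on the minus strand.
Rfc3: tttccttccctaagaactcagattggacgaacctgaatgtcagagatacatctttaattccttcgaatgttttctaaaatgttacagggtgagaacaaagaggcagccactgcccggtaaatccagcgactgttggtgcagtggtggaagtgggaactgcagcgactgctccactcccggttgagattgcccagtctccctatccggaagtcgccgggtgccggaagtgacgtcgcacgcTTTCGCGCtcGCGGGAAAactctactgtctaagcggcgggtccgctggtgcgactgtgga
Mcm6: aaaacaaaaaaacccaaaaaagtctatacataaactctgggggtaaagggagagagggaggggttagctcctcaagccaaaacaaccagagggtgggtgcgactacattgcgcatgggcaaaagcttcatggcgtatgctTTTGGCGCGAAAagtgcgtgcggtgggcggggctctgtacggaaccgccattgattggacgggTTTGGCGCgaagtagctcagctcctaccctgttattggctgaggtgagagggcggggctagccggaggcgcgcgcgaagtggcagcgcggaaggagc
Rfc3 held 2 matches and Mcm6 3. The element was found in 11 of 30 (36.7%) of the replication genes with a window, in 989 of 14938 (6.62%) of all tested genes with a window and in 1425 of 27025 (5.27%) of all promoter windows. A match is a description of letters and not a site of binding.

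Targets of p53, which respond to DNA damage and stress, rose more often than they fell, as did all genes of like signal. Of 22 p53 target genes 15 rose (68.2%), 1 fell and 6 did not pass (median 0.48). Their median signal was 178 and 199 at 3 weeks and 280 and 278 in GS cells. Among all genes at 200 to 400, 59.7% rose and 5.75% fell (median 0.348). Plk3, a stress kinase gene, measured 169 and 183 at 3 weeks and 504 and 458 in GS cells (1.45 ± 0.07, adjusted p = 8.8e-07). Ccng1, cyclin G1, measured 567 and 776 at 3 weeks and 1381 and 1885 in GS cells (1.28 ± 0.18, adjusted p = 0.00028). Tnfrsf10b, a death receptor gene, rose by 1.25 ± 0.07, Btg2, an antiproliferative gene, by 1.19 ± 0.08, and Perp, a desmosome gene, by 1.00 ± 0.15. Over the second week 20 of the 22 had fallen and 0 had risen, while 25.2% of all genes fell and 25.6% rose. NRF2 and redox genes rose in 16 of 22 cases (72.7%) and fell in 0 (median 0.44). Among all genes at 400 to 1000, 65.0% rose and 4.92% fell (median 0.383). In this list 12 rose and 0 fell with quantile scaling (median 0.27) and 10 rose and 0 fell with cyclic loess (median 0.14). Srxn1, sulfiredoxin, measured 141 and 169 at 3 weeks and 435 and 456 in GS cells (1.53 ± 0.10, adjusted p = 3.3e-06), and Txnrd1, thioredoxin reductase, measured 258 and 232 at 3 weeks and 624 and 758 in GS cells (1.49 ± 0.11, adjusted p = 8.4e-06). Gpx1, Fth1 and G6pdx, genes of peroxide removal, iron storage and NADPH supply, rose by 1.07 ± 0.10, 0.98 ± 0.09 and 0.96 ± 0.08. Glutathione transferase genes rose in 9 of 19 cases and fell in 0 (median 0.20). Quantile scaling gave a median of 0.37 (10 rose and 0 fell) and cyclic loess one of 0.25 (9 rose and 0 fell). Gsto1 measured 95.6 and 97 at 0 weeks, 2716 and 2772 at 1 week, 311 and 306 at 2 weeks, 139 and 164 at 3 weeks and 855 and 1010.5 in GS cells (2.62 ± 0.10, adjusted p = 2.4e-07). Gstp1 measured 359 and 366 at 3 weeks and 1659 and 1508 in GS cells (2.12 ± 0.08, adjusted p = 2.1e-07), and Gsta4, Gstm4 and Gstm1 rose by 1.36 ± 0.06, 0.66 ± 0.09 and 0.56 ± 0.12, and the call of Gstm1 was lost with cyclic loess scaling (0.25).

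The amino acid response governed by ATF4 went both ways. Of 21 genes 4 rose, 8 fell and 9 did not pass (median -0.076). With quantile scaling 3 rose and 11 fell (median -0.23), and with cyclic loess 3 rose and 12 fell (median -0.25). Chac1, a glutathione-degrading enzyme gene induced by ATF4, measured 337 and 409 at 3 weeks and 173 and 139 in GS cells (-1.26 ± 0.13, adjusted p = 4.7e-05), and Psat1, an enzyme gene of serine synthesis, measured 445 and 542 at 3 weeks and 311 and 314 in GS cells (-0.65 ± 0.12, adjusted p = 0.0013). For both the 3 week arrays were higher than the GS cell arrays and than the 2 week arrays. Nupr1, a stress-induced chromatin protein gene, rose by 1.48 ± 0.08, Atf3 by 0.67 ± 0.13 and Cebpb by 0.61 ± 0.07. Amino acid transporter genes also went both ways, with 10 risen and 4 fallen of 20 (median 0.26). The list median was 0.20 with quantile scaling, where 10 rose and 6 fell, and 0.093 with cyclic loess, where 8 rose and 6 fell. Slc38a2, a transporter of neutral amino acids, measured 1945 and 1891 at 3 weeks and 1124 and 1164 in GS cells (-0.74 ± 0.07, adjusted p = 4e-05), or -0.35 as the average of its clusters. Slc7a3, a transporter of cationic amino acids, fell by 0.84 ± 0.15, while Slc38a1, Slc43a1 and Slc43a2 rose by 0.90 ± 0.07, 0.76 ± 0.08 and 0.74 ± 0.10. Of 37 genes that charge transfer RNAs or scaffold the synthetases 14 rose, 1 fell and 22 did not pass (median 0.18). With quantile scaling 11 rose and 5 fell (median 0.038), and with cyclic loess 8 rose and 9 fell (median -0.025). The mitochondrial enzyme genes Yars2, Rars2 and Iars2 rose by 1.14 ± 0.14, 0.76 ± 0.11 and 0.58 ± 0.11, and the cytosolic ones Qars and Hars by 0.68 ± 0.07 and 0.58 ± 0.08. The call of Iars2 was lost with cyclic loess scaling (0.26).

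Genes of the unfolded protein response of the endoplasmic reticulum rose in 19 of 22 cases, and 2 fell (median 0.67). By quantile scaling 14 rose and 2 fell (median 0.48), and by cyclic loess 14 rose and 2 fell (median 0.40). Hspa5, the gene of the chaperone BiP, measured 1733 and 1819 at 0 weeks, 3796 and 3739 at 1 week, 1463 and 1435 at 2 weeks, 968 and 1063 at 3 weeks and 2149.7 and 2098 in GS cells (1.07 ± 0.07, adjusted p = 3.4e-06). Edem1, which directs misfolded glycoproteins to degradation, measured 207 and 213 at 3 weeks and 459 and 556 in GS cells (1.26 ± 0.10, adjusted p = 1.1e-05). Xbp1, a transcription factor gene of this response, rose by 1.03 ± 0.08, and the folding factor genes Pdia6 and Dnajc3 by 1.00 ± 0.07 and 0.96 ± 0.13. The cluster of Dnajc3 had the same values as another cluster. Over the second week 18 of the 22 genes of the response had fallen, while 25.2% of all genes fell. The fibroblast list fell then too and rose over the arrays compared here. A link between the 2 lists was not tested.

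Hspa5 and Edem1 promoters are shown because the CCAAT box, bound by NF-Y, is a known part of the control element of these genes. Capitals mark CCAAT on either strand (ATTGG where it lies on the other). The Hspa5 window is chr2:34771840-34772139 on the plus strand and the Edem1 window chr6:108828391-108828690 on the plus strand, both GRCm38.p6.
Hspa5: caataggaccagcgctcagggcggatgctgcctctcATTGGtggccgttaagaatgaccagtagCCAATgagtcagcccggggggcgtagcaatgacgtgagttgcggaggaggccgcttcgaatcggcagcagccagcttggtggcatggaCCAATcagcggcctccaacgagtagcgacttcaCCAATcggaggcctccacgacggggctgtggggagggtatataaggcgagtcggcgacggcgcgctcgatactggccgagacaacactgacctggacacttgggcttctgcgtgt
Edem1: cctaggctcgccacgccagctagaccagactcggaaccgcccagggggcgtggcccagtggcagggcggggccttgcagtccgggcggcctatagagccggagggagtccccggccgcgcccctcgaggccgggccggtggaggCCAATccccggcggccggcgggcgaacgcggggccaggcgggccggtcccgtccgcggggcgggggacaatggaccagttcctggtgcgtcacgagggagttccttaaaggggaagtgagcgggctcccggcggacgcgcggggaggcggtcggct
Hspa5 held 4 matches and Edem1 1. CCAAT was present in 16 of 19 (84.2%) of the unfolded protein response genes with a window, in 5726 of 14938 (38.3%) of tested genes and in 10248 of 27025 (37.9%) of all windows. It was also present in 24 of 31 (77.4%) of mitosis genes and in 197 of 541 (36.4%) of genes that rose at least 2-fold.

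Of 19 cytosolic and mitochondrial chaperone genes 15 rose, 1 fell and 3 did not pass (median 0.43). In this list 13 rose and 1 fell with quantile scaling (median 0.34) and 12 rose and 2 fell with cyclic loess (median 0.28). Bag3, a co-chaperone gene, measured 207 and 208 at 3 weeks and 499 and 485 in GS cells (1.24 ± 0.06, adjusted p = 7.5e-07), and Hspa1a, an inducible heat shock gene, measured 622 and 621 at 3 weeks and 357 and 379.6 in GS cells and fell (-0.76 ± 0.14, adjusted p = 0.002). Dnajb1, Hsf1 and Hspb8, a co-chaperone, the heat shock factor and a small heat shock protein, rose by 0.88 ± 0.08, 0.87 ± 0.08 and 0.76 ± 0.08.

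Energy metabolism genes rose broadly and by modest amounts, as did all genes of like signal. Of all genes at 400 to 1000, 65.0% rose (median 0.383), and of those at 200 to 400, 59.7% rose (median 0.348). Of 80 oxidative phosphorylation genes 60 rose, 1 fell and 19 did not pass (median 0.44). With quantile scaling 46 rose and 2 fell (median 0.29), and with cyclic loess 40 rose and 3 fell (median 0.23). Sdhb, a subunit gene of succinate dehydrogenase, measured 292 and 271 at 3 weeks and 596 and 635 in GS cells (1.13 ± 0.07, adjusted p = 2.3e-06). Uqcr11, Ndufb8, Ndufb4 and Atp5o, subunit genes of complexes III, I and V, rose by 1.19 ± 0.13, 1.01 ± 0.09, 0.95 ± 0.09 and 0.94 ± 0.08. Mitochondrial ribosomal protein genes rose in 54 of 73 cases and fell in 1 (median 0.42). Scaled by quantiles, 39 rose and 1 fell (median 0.32), and scaled by cyclic loess, 33 rose and 1 fell (median 0.24). Mrps18c measured 113 and 131 at 3 weeks and 259.9 and 373 in GS cells (1.36 ± 0.19, adjusted p = 0.00034), and Mrpl52, Mrpl36, Mrpl58 and Mrpl20 rose by 1.21 ± 0.10, 1.07 ± 0.14, 1.02 ± 0.08 and 0.97 ± 0.13. Cytosolic ribosomal protein genes, of which many are bright on the array, had a median below that of all genes of like signal. Of all 759 genes at 1000 or more, 425 rose and 50 fell (median 0.276). Of the 66 cytosolic ribosomal protein genes measured 20 rose, 1 fell and 45 did not pass (median 0.088). With quantile scaling 12 rose and 7 fell (median 0.014), and with cyclic loess 8 rose and 16 fell (median -0.02). Rps27l, a p53-induced paralog, rose by 1.03 ± 0.12, and Rpl24, Rps12, Rpl39 and Rpl10l by 0.95 ± 0.14, 0.84 ± 0.17, 0.74 ± 0.16 and 0.64 ± 0.13. Ribosomal protein genes have many processed copies in the genome that may share signal, and the call of Rpl10l was lost with cyclic loess scaling (0.31).

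Of 26 glycolysis genes 12 rose, 1 fell and 13 did not pass (median 0.18). The median of the list was 0.24 with quantile scaling, where 14 rose and 2 fell, and 0.18 with cyclic loess, where 11 rose and 5 fell. Hk2, hexokinase 2, measured 237 and 241 at 3 weeks and 602 and 513 in GS cells (1.22 ± 0.08, adjusted p = 4.2e-06), and Pgk1, Ldhb, Tpi1 and Slc16a1, 3 enzymes and a lactate transporter, rose by 0.98 ± 0.14, 0.69 ± 0.09, 0.68 ± 0.11 and 0.68 ± 0.10. Pgk1 shared its values with another cluster. Fatty acid synthesis genes rose in 11 of 15 cases and fell in 0 (median 0.38). By quantile scaling 8 rose and 2 fell (median 0.26), and by cyclic loess 7 rose and 2 fell (median 0.18). Scd1, a fatty acid desaturase gene, measured 129 and 163 at 3 weeks and 589 and 723 in GS cells (2.17 ± 0.12, adjusted p = 1.4e-06), and Fads1, another desaturase gene, measured 1054 and 988 at 0 weeks, 1412 and 1410.5 at 1 week, 564 and 532 at 2 weeks, 282 and 314 at 3 weeks and 1323 and 1222 in GS cells (2.10 ± 0.08, adjusted p = 2.4e-07). Scd2, Acacb and Elovl6 rose by 1.75 ± 0.08, 1.05 ± 0.08 and 0.98 ± 0.07. Of 25 genes of cholesterol synthesis and uptake 14 rose, 1 fell and 10 did not pass (median 0.34). With quantile scaling 11 rose and 2 fell (median 0.15), and with cyclic loess 10 rose and 4 fell (median 0.11). The enzyme genes Msmo1, Sc5d, Cyp51 and Sqle rose by 0.91 ± 0.09, 0.80 ± 0.08, 0.78 ± 0.12 and 0.60 ± 0.06.

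Some further changes moved by over 1.5 times under another setting without losing their call. With cyclic loess scaling the change was 0.41 for Atf3, 0.31 for Birc5, 0.26 for Ccnb2, 0.39 for Cd68, 0.50 for Cyp51, 0.54 for Dnajb1, 0.64 for Elovl6, 0.64 for G6pdx, 0.53 for H1f10, 0.34 for Hars, 0.54 for Hsf1, -0.23 for Itgam, -0.53 for Kit, 0.31 for Mbd3, 0.58 for Msmo1, 0.57 for Ptpn11, 0.39 for Qars, 0.35 for Slc16a1, 0.57 for Slc38a1, 0.44 for Sox9, 0.27 for Sqle, -0.28 for Stra8, -0.80 for Tapbp, -0.69 for Tdrd1, 0.49 for Tex101, 0.49 for Tjp1, 0.36 for Tpi1, -0.58 for Zbtb16 and 0.20 for Zfp57. With quantile scaling the change was 0.36 for Ccna2, 0.31 for Ccnb2, 0.43 for Cd68, 0.34 for Dnmt1, -0.20 for Itgam, 0.40 for Mbd3, -0.30 for Ms4a1, 0.30 for Pou3f1, 0.43 for Slc16a1, 0.36 for Sqle, -0.26 for Stra8, -0.64 for Tdrd1, 0.44 for Tpi1 and 0.29 for Zfp57. Without the first 3 week array the change was 0.54 for Clu. Without the second GS cell array the change was -0.24 for Itgam and 0.54 for Rps12. As the average of clusters the change was 0.49 for Slc38a1.

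**Figure D3:**
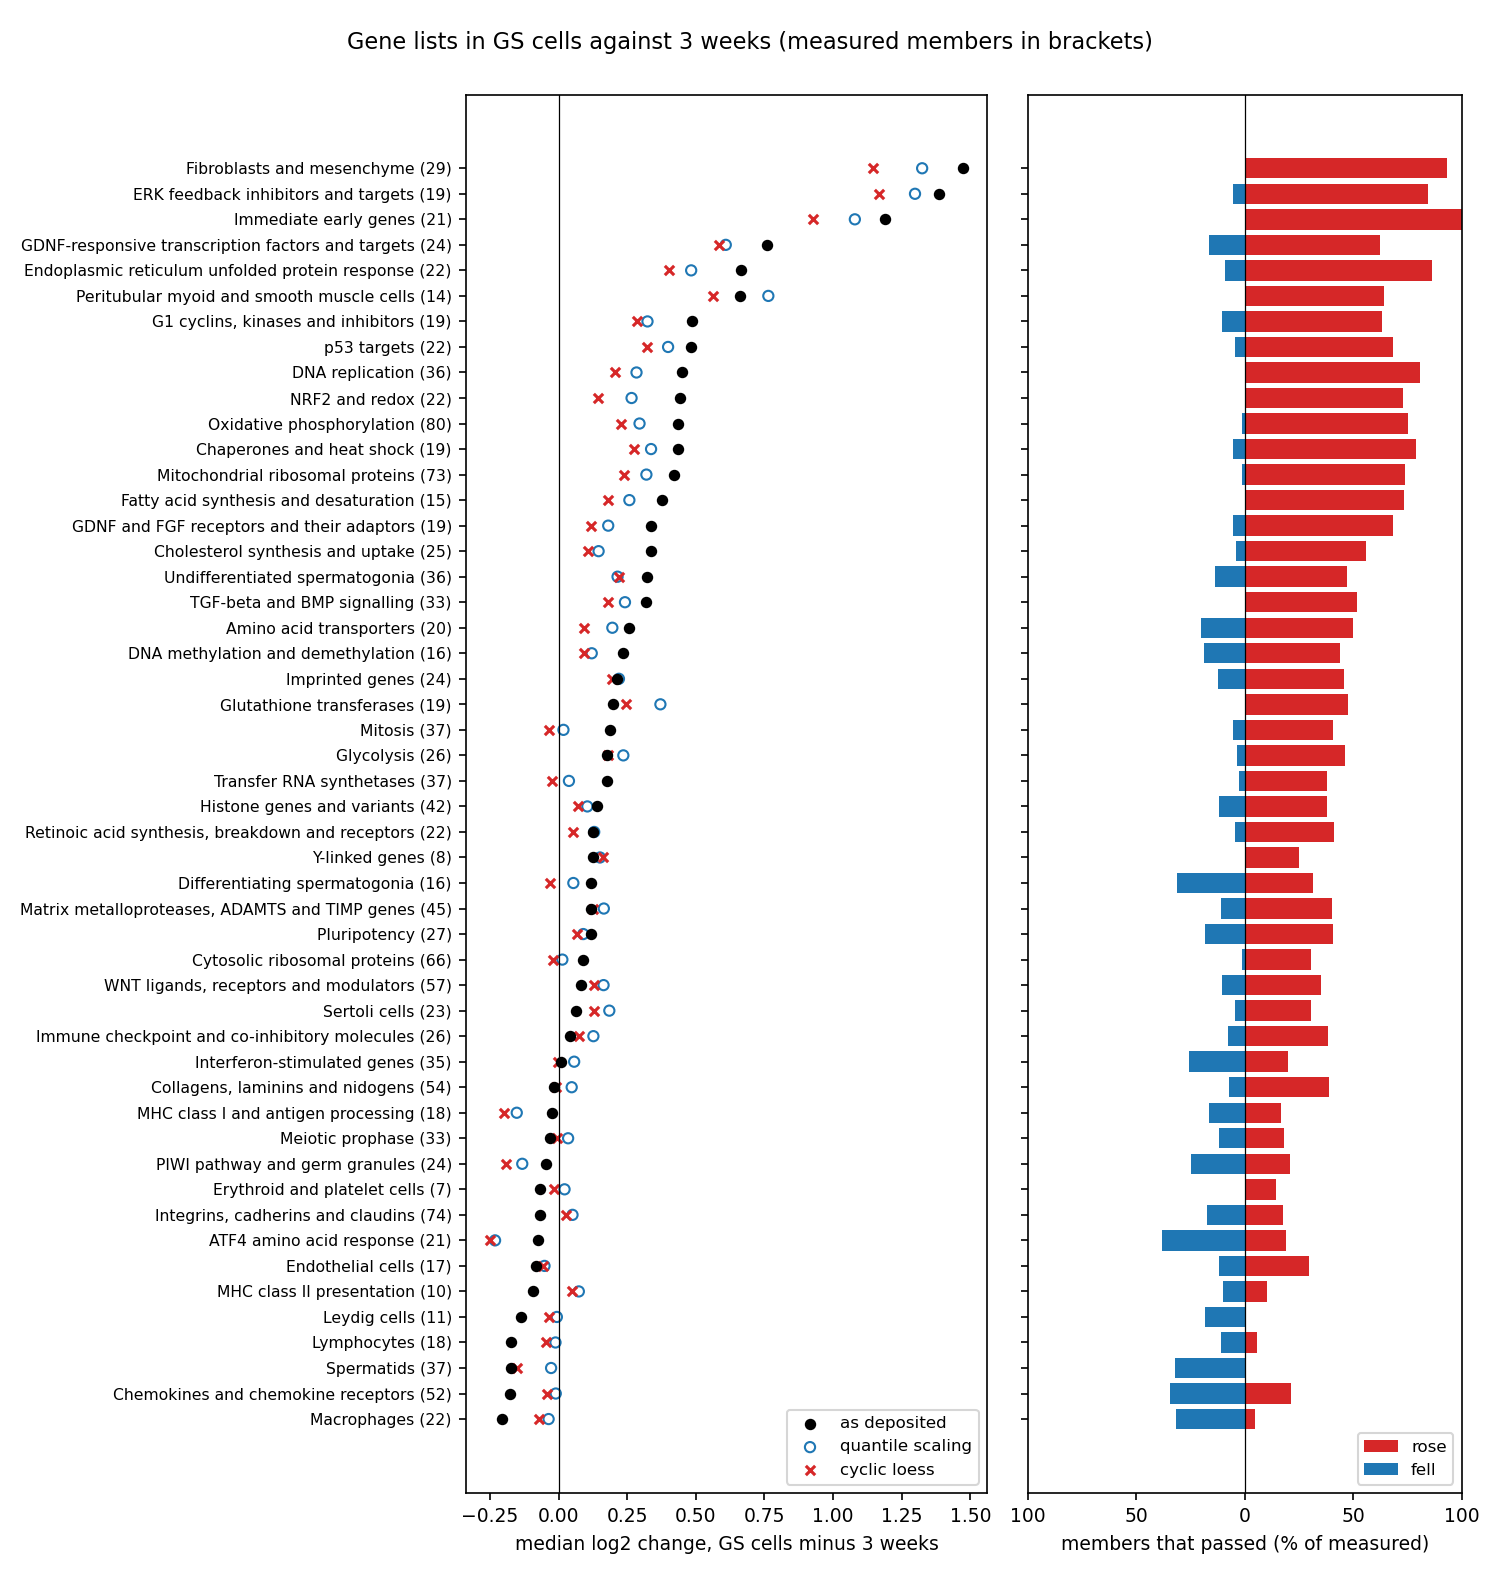
Median log2 change of the measured members of each of 50 gene lists (left; as deposited, with quantile and with cyclic loess scaling) and the share of members that rose or fell (right, % of measured members). Fibroblast, ERK feedback and immediate early genes have the highest medians in all 3 scalings, and the lowest are those of macrophage genes as deposited (-0.20) and of ATF4 genes with quantile (-0.23) and cyclic loess scaling (-0.25).

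Matrix genes were divided between members. Of 54 collagen, laminin and nidogen genes 21 rose, 4 fell and 29 did not pass, with a median of -0.015 that ranged from -0.157 to 0.147 without 1 array. In this list 20 rose and 4 fell with quantile scaling (median 0.048) and 17 rose and 8 fell with cyclic loess (median -0.009). Col12a1, a fibril-associated collagen gene, measured 122 and 145 at 3 weeks and 885 and 1062 in GS cells (2.87 ± 0.10, adjusted p = 2.1e-07), and Nid1, a basement membrane linker gene, measured 255 and 266 at 3 weeks and 1377 and 1555 in GS cells (2.49 ± 0.10, adjusted p = 2.6e-07). Col8a1 rose by 1.60 ± 0.07. In the protease and inhibitor list 18 rose, 5 fell and 22 did not pass of 45 (median 0.12). Timp2, Timp3 and Timp1, inhibitors of metalloproteases, rose by 3.04 ± 0.19, 2.85 ± 0.13 and 2.52 ± 0.30. Timp1 measured 403 and 947 at 3 weeks and 3398 and 3715 in GS cells, so its 3 week arrays differed more than 2-fold. Among 74 integrin, cadherin and claudin genes 13 rose, 13 fell and 48 did not pass (median -0.069). With quantile scaling 19 rose and 6 fell (median 0.051), and with cyclic loess 17 rose and 8 fell (median 0.027). Itgb5 and Itgb1, integrin beta chains, rose by 2.13 ± 0.06 and 1.45 ± 0.12, the second by 0.86 as the average of its clusters. Cdh3, P-cadherin, measured 196 and 181 at 3 weeks and 561 and 631 in GS cells (1.66 ± 0.08, adjusted p = 6e-07) and was highest in GS cells.

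Secreted signals moved by family. Of 33 TGF-beta and BMP genes 17 rose, 0 fell and 16 did not pass (median 0.32). Scaled by quantiles, 16 rose and 2 fell (median 0.24), and scaled by cyclic loess, 14 rose and 3 fell (median 0.18). Inhba, the activin A subunit gene, measured 169 and 265 at 3 weeks and 1532 and 1975 in GS cells (3.04 ± 0.20, adjusted p = 3.1e-06), and Tgfb1 measured 204 and 236 at 3 weeks and 1044 and 1012 in GS cells (2.23 ± 0.08, adjusted p = 2.4e-07). The BMP antagonist gene Grem1 rose by 2.10 ± 0.07, and Smad7, the inhibitory SMAD gene, by 0.89 ± 0.07. Of 57 WNT pathway genes 20 rose, 6 fell and 31 did not pass (median 0.081, and -0.026 without the first GS cell array). The median of the list was 0.16 with quantile scaling, where 23 rose and 6 fell, and 0.13 with cyclic loess, where 21 rose and 7 fell. Wnt5a, a ligand of mesenchyme, measured 96.8 and 91.3 at 3 weeks and 237 and 243 in GS cells (1.35 ± 0.07, adjusted p = 8.1e-07), Sfrp2, a secreted inhibitor, rose by 1.43 ± 0.11, and the receptor genes Fzd2, Lrp5 and Fzd1 by 1.37 ± 0.08, 1.33 ± 0.07 and 1.06 ± 0.07. Of 52 chemokine and receptor genes 11 rose, 18 fell (34.6%) and 23 did not pass (median -0.18), and 28 had mean signals under 100. Of all genes 27.1% fell at 64 to 100 and 30.4% below 64. By quantile scaling 13 rose and 15 fell (median -0.01), and by cyclic loess 12 rose and 16 fell (median -0.041). Ccl2, a monocyte attractant gene, measured 354 and 438 at 3 weeks and 1997 and 2272 in GS cells (2.44 ± 0.11, adjusted p = 5.1e-07). Cxcl2, Cxcl1 and Cxcl5, neutrophil attractant genes, rose by 2.61 ± 0.14, 1.74 ± 0.08 and 1.71 ± 0.13, and Ccl7 by 1.55 ± 0.14. Further genes, named after their values were seen, were Csf1, the macrophage growth factor gene, at 226 and 185 at 3 weeks and 1018 and 1294 in GS cells (2.49 ± 0.13, adjusted p = 8.8e-07), and Lif, at 84.7 and 75.2 at 3 weeks and 236 and 247 in GS cells (1.60 ± 0.08, adjusted p = 6.5e-07). Gdnf itself measured 121 and 112 at 3 weeks and 125 and 102 in GS cells and did not pass (-0.04 ± 0.10, adjusted p = 0.74).

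Markers of the other testis cells were mostly dim. Of all genes 27.1% fell at 64 to 100 and 30.4% below 64. Of 22 macrophage genes 1 rose, 7 fell (31.8%) and 14 did not pass (median -0.20), and 17 had mean signals under 100. The share of macrophage genes that fell was thus near that of all dim genes. With quantile scaling 4 rose and 4 fell (median -0.036), and with cyclic loess 3 rose and 6 fell (median -0.072). Lyz2, the lysozyme gene of macrophages and granulocytes, measured 366 and 427 at 0 weeks, 520.2 and 581 at 1 week, 738 and 749 at 2 weeks, 462 and 736 at 3 weeks and 104 and 105 in GS cells (-2.48 ± 0.18, adjusted p = 5.9e-06). It was thus lower in GS cells than in every other group, while Cd68, a lysosomal gene, rose by 0.66 ± 0.09. Csf1r, the defining receptor of macrophages, measured 75.9 and 63.1 at 3 weeks and 66.2 and 58.9 in GS cells, Adgre1 59.3 and 55.1 at 3 weeks and 46.4 and 44.4 in GS cells and C1qa 75 and 81.1 at 3 weeks and 82 and 68 in GS cells, all below the medians of their arrays. Lyz1, Adgre1, Itgam and C1qb fell by 0.44 ± 0.12, 0.33 ± 0.07, 0.38 ± 0.09 and 0.37 ± 0.12. The call of Lyz1 was lost in a fit of these 4 arrays alone, without the second 3 week array (-0.32) and without the second GS cell array (-0.27), and that of C1qb with quantile scaling (-0.19), with cyclic loess scaling (-0.22), in a fit of these 4 arrays alone, without the first 3 week array (-0.26) and without the second GS cell array (-0.29). Of 23 Sertoli cell genes 7 rose, 1 fell and 15 did not pass (median 0.062, and -0.007 without the first GS cell array). In this list 10 rose and 1 fell with quantile scaling (median 0.18) and 9 rose and 1 fell with cyclic loess (median 0.13). Trf, the transferrin gene, measured 148 and 157 at 0 weeks, 204 and 208 at 1 week, 610.3 and 636 at 2 weeks, 347 and 367 at 3 weeks and 1629.9 and 1548 in GS cells (2.15 ± 0.07, adjusted p = 1.5e-07), but Amh and Fshr, specific to Sertoli cells, measured 59.3 and 61.2 at 3 weeks and 79.9 and 59.3 in GS cells and 79.1 and 84 at 3 weeks and 68.5 and 67.1 in GS cells. Ctsl, Clu, Tjp1 and Sox9 rose by 1.12 ± 0.09, 0.84 ± 0.15, 0.80 ± 0.09 and 0.69 ± 0.08, and none of these is confined to Sertoli cells. Of 11 Leydig cell genes 0 rose, 2 fell (18.2%) and 9 did not pass (median -0.14), and 9 had mean signals under 100. With quantile scaling 0 rose and 0 fell (median -0.006), and with cyclic loess 0 rose and 1 fell (median -0.033). The steroid enzyme genes Cyp17a1 and Hsd3b6 fell by 0.34 ± 0.12 and 0.30 ± 0.08. The call of Cyp17a1 was lost with quantile scaling (-0.17), with median scaling (-0.27), in a fit of these 4 arrays alone, with a floor of 32, without the first 3 week array (-0.12), without the first GS cell array (-0.35) and without the second GS cell array (-0.32), and that of Hsd3b6 with quantile scaling (-0.12), with cyclic loess scaling (-0.15), in a fit of these 4 arrays alone and without the second GS cell array (-0.22). Cyp11a1 measured 62.1 and 60.4 at 3 weeks and 67.3 and 55.5 in GS cells.

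Of 17 endothelial genes 5 rose, 2 fell and 10 did not pass (median -0.083, 0.055 without the second GS cell array). Scaled by quantiles, 5 rose and 1 fell (median -0.051), and scaled by cyclic loess, 4 rose and 1 fell (median -0.056). Erg, an ETS factor gene of endothelium, measured 116 and 135 at 0 weeks, 121 and 106 at 1 week, 345 and 369 at 2 weeks, 617 and 664 at 3 weeks and 257 and 287 in GS cells and fell (-1.24 ± 0.10, adjusted p = 1.3e-05), while Flt1, a VEGF receptor gene, measured 130.1 and 140 at 0 weeks, 860.2 and 904 at 1 week, 306 and 282 at 2 weeks, 160.2 and 167 at 3 weeks and 516 and 521 in GS cells and rose (1.67 ± 0.07, adjusted p = 4.4e-07). Plvap, Eng and Egfl7 rose by 1.18 ± 0.10, 1.09 ± 0.08 and 0.52 ± 0.12, and the call of Egfl7 was lost with quantile scaling (0.32) and with cyclic loess scaling (0.29). The endothelial cadherin gene Cdh5 measured 99.8 and 99 at 3 weeks and 103 and 98.4 in GS cells and Pecam1 96.1 and 99.8 at 3 weeks and 105 and 105 in GS cells, and neither passed. Of 18 lymphocyte genes 1 rose, 2 fell and 15 did not pass (median -0.17), namely Cd79a (rose by 0.55 ± 0.11), Ms4a1 (fell by 0.48 ± 0.08) and Cd3g (fell by 0.29 ± 0.09), all below the medians of their arrays. Of the 18, 15 had mean signals under 100, and of all genes 27.1% fell at 64 to 100 and 30.4% below 64. The median of the list was -0.011 with quantile scaling, where 2 rose and 1 fell, and -0.045 with cyclic loess, where 2 rose and 1 fell. The call of Cd3g was lost with quantile scaling (-0.11), with cyclic loess scaling (-0.14), in a fit of these 4 arrays alone, without the first 3 week array (-0.17) and without the second GS cell array (-0.23). Ptprc, the pan-leukocyte gene, measured 66 and 60.8 at 3 weeks and 57 and 53.1 in GS cells. Of 7 erythroid and platelet genes 1 rose, 0 fell and 6 did not pass (median -0.066). By quantile scaling 1 rose and 0 fell (median 0.022), and by cyclic loess 0 rose and 0 fell (median -0.018). Ppbp, a platelet chemokine gene, rose by 0.34 ± 0.10, a call lost with cyclic loess scaling (0.21), in a fit of these 4 arrays alone, without the first 3 week array (0.30), without the second 3 week array (0.37) and without the second GS cell array (0.19). Of 8 Y-linked genes 2 rose, 0 fell and 6 did not pass (median 0.13). In this list 2 rose and 1 fell with quantile scaling (median 0.15) and 0 rose and 1 fell with cyclic loess (median 0.16). Eif2s3y and Ddx3y rose by 0.66 ± 0.19 and 0.49 ± 0.13, the first call lost with cyclic loess scaling (0.46), without the first 3 week array (0.51) and without the second GS cell array (0.38) and the second with cyclic loess scaling (0.49), in a fit of these 4 arrays alone, without the first 3 week array (0.40) and without the second GS cell array (0.27). Xist, the RNA of the inactive X chromosome of female cells, was named after its values were seen. It measured 51.5 and 52.7 at 0 weeks, 522 and 687 at 1 week, 60.3 and 59.7 at 2 weeks, 61.5 and 56.8 at 3 weeks and 99.3 and 115 in GS cells (0.86 ± 0.12, adjusted p = 0.00037) and was highest at 1 week.

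Cd274, the gene of the checkpoint ligand PD-L1 that the title of the series names, measured 268 and 229.7 at 3 weeks and 233 and 239 in GS cells. The groups overlapped and the change did not pass (-0.07 ± 0.09, adjusted p = 0.54). It passed as a fall with quantile scaling (-0.26, adjusted p = 0.039) and with cyclic loess scaling (-0.23, adjusted p = 0.045). Of 26 checkpoint and co-inhibitory genes 10 rose, 2 fell and 14 did not pass (median 0.041, -0.055 without the second 3 week array). Scaled by quantiles, 11 rose and 1 fell (median 0.13), and scaled by cyclic loess, 9 rose and 3 fell (median 0.076). Those that rose most were Tgfb1, above, and Lgals1, a galectin gene, at 1814 and 2346 at 3 weeks and 5373 and 5949 in GS cells (1.45 ± 0.11, adjusted p = 8.3e-06). Pvr, the poliovirus receptor gene, rose by 1.43 ± 0.10, Nt5e, an adenosine-producing enzyme gene, by 0.95 ± 0.09 and Cd200 by 0.93 ± 0.11. All 5 were highest at 1 week.

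Antigen presentation genes moved apart from each other. B2m, the light chain of class I molecules, measured 668 and 847 at 0 weeks, 4918 and 4831 at 1 week, 1079 and 1202 at 2 weeks, 489 and 649 at 3 weeks and 1317 and 1539.8 in GS cells (1.34 ± 0.15, adjusted p = 8.3e-05). Of 18 class I genes 3 rose, 3 fell and 12 did not pass (median -0.024, 0.04 with median scaling). With quantile scaling 4 rose and 6 fell (median -0.15), and with cyclic loess 3 rose and 7 fell (median -0.20). Tapbp, the tapasin gene of peptide loading, measured 1019 and 1059 at 3 weeks and 747 and 728 in GS cells and fell (-0.49 ± 0.07, adjusted p = 0.00036), as did Tapbpl (0.33 ± 0.11) and the class I transactivator Nlrc5 (0.61 ± 0.13). Nlrc5 did not pass as the average of its clusters (-0.21), and the call of Tapbpl was lost in a fit of these 4 arrays alone, without the first 3 week array (-0.26), without the second 3 week array (-0.39) and without the second GS cell array (-0.14). H2-K1 rose by 0.38 ± 0.07, a call lost with quantile scaling (0.13) and with cyclic loess scaling (0.043). Of 10 class II genes 1 rose, 1 fell and 8 did not pass (median -0.092), H2-DMa changing by 0.42 ± 0.07 and H2-Ob by -0.26 ± 0.08, the latter call lost with quantile scaling (-0.082), with median scaling (-0.20), with cyclic loess scaling (-0.11), in a fit of these 4 arrays alone, without the second 3 week array (-0.23) and without the second GS cell array (-0.17). The median of the list was 0.074 with quantile scaling, where 2 rose and 0 fell, and 0.048 with cyclic loess, where 1 rose and 0 fell.

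Interferon-stimulated genes moved in both directions. Of 35 measured 7 rose, 9 fell and 19 did not pass (median 0.009). By quantile scaling 6 rose and 7 fell (median 0.057), and by cyclic loess 5 rose and 7 fell (median -0.002). Ifitm3, a membrane gene that blocks virus entry, measured 736 and 939 at 0 weeks, 5476 and 5379 at 1 week, 811 and 773 at 2 weeks, 253 and 409.6 at 3 weeks and 1618 and 1998 in GS cells (2.48 ± 0.20, adjusted p = 1.2e-05), and Ifitm2 measured 639 and 906 at 3 weeks and 1712 and 1961 in GS cells (1.27 ± 0.14, adjusted p = 8e-05). Gbp3, a guanylate-binding GTPase gene, measured 85.9 and 86.3 at 0 weeks, 106 and 103 at 1 week, 265 and 292 at 2 weeks, 314 and 373 at 3 weeks and 161 and 182 in GS cells (-1.002 ± 0.10, adjusted p = 3.6e-05). Gbp2 fell by 0.90 ± 0.09 and Oasl2, an oligoadenylate synthetase-like gene, by 0.94 ± 0.10. For Gbp3 and Gbp2 the 3 week arrays were the highest of the series. The promoters of Ifitm3 and Gbp3, which moved in opposite directions, are shown with GAAANNGAA, the core of the interferon response element, in capitals on either strand. They are windows of 300 bases on GRCm38.p6, at chr7:141010695-141010994 on the minus strand for Ifitm3 and chr3:142559794-142560093 on the plus strand for Gbp3.
Ifitm3: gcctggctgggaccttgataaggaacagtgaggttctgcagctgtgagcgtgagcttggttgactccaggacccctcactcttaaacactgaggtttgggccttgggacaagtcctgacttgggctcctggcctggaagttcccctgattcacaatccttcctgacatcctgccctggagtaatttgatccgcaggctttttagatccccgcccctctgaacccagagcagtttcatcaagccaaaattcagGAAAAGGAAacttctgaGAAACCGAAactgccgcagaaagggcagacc
Gbp3: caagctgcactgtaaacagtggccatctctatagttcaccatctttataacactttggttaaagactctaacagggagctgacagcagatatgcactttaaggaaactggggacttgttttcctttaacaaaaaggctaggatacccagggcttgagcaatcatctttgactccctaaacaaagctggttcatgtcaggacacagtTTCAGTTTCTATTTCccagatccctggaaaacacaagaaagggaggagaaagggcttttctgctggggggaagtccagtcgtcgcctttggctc
Both windows held 2 matches. The element was found in 16 of 25 of interferon-stimulated genes with a window, 1187 of 14938 (7.95%) of tested genes and 2317 of 27025 (8.57%) of all windows.

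Falls of at least 2-fold were mostly chemoreceptor genes. Of the 196, 130 were olfactory or vomeronasal receptor genes and 66 were others, and 10 lay on clusters with the same values as another cluster. These families were counted after their values were seen. Among 1039 olfactory receptor genes, which detect odours in the nose, 0 rose and 878 fell (median -0.52). Their median signal was 81.7 and 82.9 at 3 weeks and 55.5 and 54.2 in GS cells, against 50.5 and 48.7 at 1 week. With quantile scaling 702 fell and 2 rose, and with cyclic loess 724 fell and 2 rose. Of 174 vomeronasal receptor genes 0 rose and 120 fell (median -0.34). Mean signals were under 100 for 822 and 155 of the members of the families. Of all genes 27.1% fell at 64 to 100 and 30.4% below 64, and these shares include the families. Among olfactory genes 84.5% fell and among vomeronasal genes 69.0%. The part of low signal in these falls was not tested.

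The 12 largest falls held several repeated or multicopy loci. Snord115, a small nucleolar RNA gene cluster, measured 277 and 247 at 0 weeks, 85.4 and 124 at 1 week, 442 and 449.5 at 2 weeks, 1086 and 1096 at 3 weeks and 66 and 157 in GS cells (-3.42 ± 0.32, adjusted p = 2.8e-05). Gm26504, named Snord116 in the deposited table, measured 1476 and 1629 at 3 weeks and 90.9 and 288 in GS cells (-3.26 ± 0.42, adjusted p = 0.00018). Srsy, a multicopy Y gene, measured 728 and 872 at 3 weeks and 76.5 and 219 in GS cells (-2.62 ± 0.39, adjusted p = 0.00042), and its relative Sly, named after its values were seen, measured 583 and 771 at 3 weeks and 125 and 279 in GS cells (-1.85 ± 0.31, adjusted p = 0.00092). In each of these the second GS cell array was more than 2-fold above the first, yet both lay below the 3 week arrays. Vmn2r122 and Nlrp4f had nearly the same signal on every array, 991 and 1149.6 at 3 weeks and 156 and 263 in GS cells and 991 and 1134 at 3 weeks and 158 and 258 in GS cells, and fell by 2.40 ± 0.20 and 2.39 ± 0.18. Gm8165 and the uncharacterized genes LOC100039147, LOC100040235, LOC100040223 and LOC100504530 fell by 2.37 ± 0.23, 2.40 ± 0.22, 2.30 ± 0.22, 2.24 ± 0.32 and 2.23 ± 0.26. Ccdc141, a coiled-coil protein gene, measured 574 and 664 at 3 weeks and 116 and 139.7 in GS cells (-2.28 ± 0.12, adjusted p = 1.1e-06). Named after their values were seen were Foxf1, a forkhead gene of mesenchyme, at 255 and 314 at 0 weeks, 456 and 487 at 1 week, 1623 and 1606 at 2 weeks, 2369 and 2382 at 3 weeks and 653 and 715 in GS cells (-1.80 ± 0.10, adjusted p = 1.3e-06), Hmgn5, a nucleosome-binding protein gene, at 163 and 213 at 3 weeks and 45 and 52.6 in GS cells (-1.94 ± 0.13, adjusted p = 4.9e-06) and Wfdc17, at 316 and 470.2 at 3 weeks and 88.5 and 93.9 in GS cells (-2.08 ± 0.16, adjusted p = 8e-06). Foxf1 therefore fell while the fibroblast list rose.

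MicroRNA genes were mostly dim and mostly did not pass. Of 297, 2 rose and 58 fell (median -0.068), and with quantile scaling 24 rose and 50 fell. The 3 copies of the Mir680 gene, named after their values were seen, all fell and all encode the mature miR-680, printed first below. The other sequences are those of a further gene that fell, Mir7b (-1.13, adjusted p = 0.00013), and of the 2 that rose, Mir27a (0.45, adjusted p = 0.0024) and Mir196a-1 (0.38, adjusted p = 0.0015). Mature RNAs are from RefSeq with the seed, bases 2 to 8, in capitals, and no 2 of the 4 share a seed.
miR-680: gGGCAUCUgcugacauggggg
miR-7b-5p: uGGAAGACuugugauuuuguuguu
miR-27a-3p: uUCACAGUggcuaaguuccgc
miR-196a-5p: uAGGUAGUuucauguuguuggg
Mir680-1 measured 1229.5 and 1239.7 at 3 weeks and 227 and 419 in GS cells (-2.003 ± 0.23, adjusted p = 9.2e-05), Mir680-2 2804 and 2648 at 3 weeks and 639 and 824 in GS cells (-1.91 ± 0.11, adjusted p = 1.4e-06) and Mir680-3 897 and 754 at 3 weeks and 435 and 385 in GS cells (-1.01 ± 0.11, adjusted p = 8.1e-05). An array cluster of a microRNA gene covers its precursor or host transcript and does not measure the mature RNA by itself.

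The change from 3 weeks to GS cells ran against the change over the second week of culture for most of the genes that moved far. The second-week comparison, 2 weeks against 1 week, shares no array with the other, and in it 25.6% of all genes rose and 25.2% fell. Of the 720 genes that rose at least 2-fold in GS cells 554 had fallen over the second week (76.9%) and 104 had risen (14.4%), with a median second-week change of -1.57. By geometric mean 483 of the 720 were highest at 1 week, 195 in GS cells, 35 at 0 weeks and 7 at 2 weeks. Of the 196 genes that fell at least 2-fold 185 had risen over the second week (94.4%) and 6 had fallen, with a median of 0.82, and 184 were highest at 3 weeks. Of these 196, 130 were olfactory or vomeronasal receptor genes. Over the second week 693 of 1039 olfactory and 89 of 174 vomeronasal genes rose. Lower quartile signals were 62.5 and 59.5 at 1 week, 66.1 and 66.1 at 2 weeks, 73.7 and 70.6 at 3 weeks and 65.4 and 61.2 in GS cells. The part of this shift at the low end was not tested. Across the 20174 genes the 2 changes correlated with r = -0.475 and rho = -0.387, given as a description over genes measured on the same platform.

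**Figure D4:**
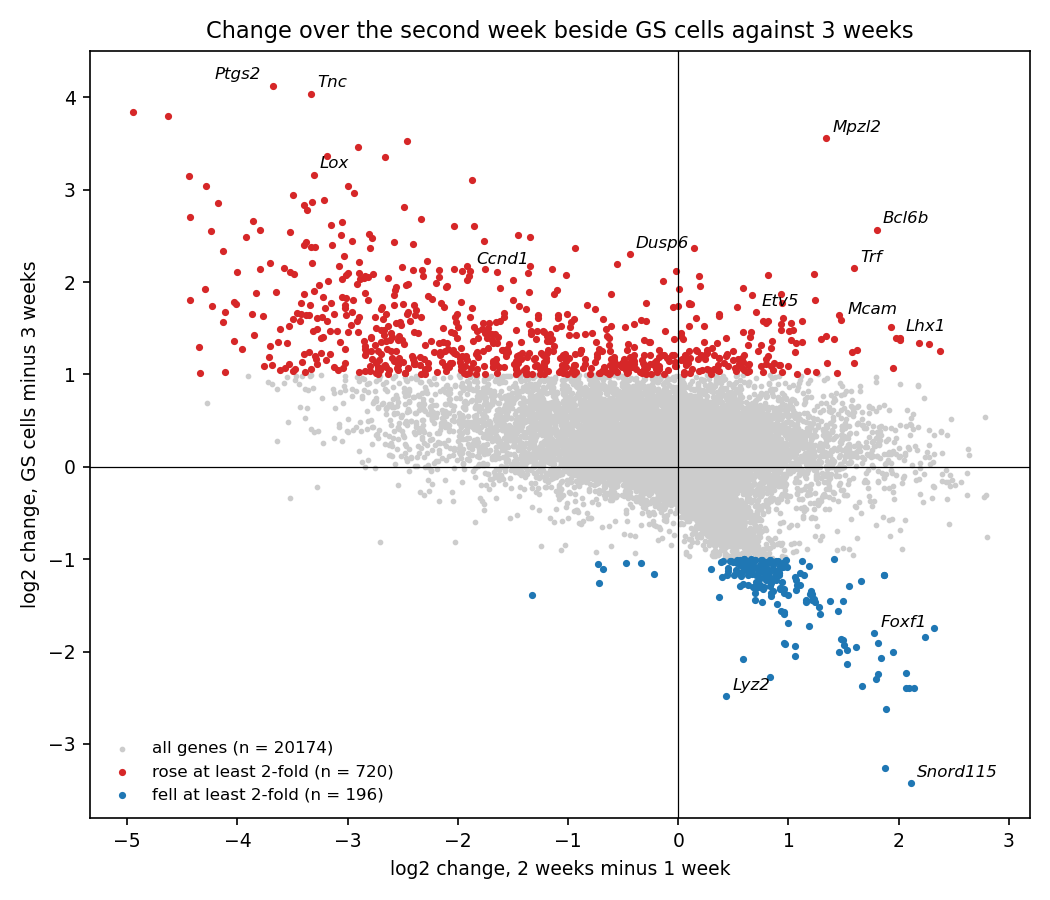
Log2 change in GS cells against 3 weeks (vertical axis) by log2 change at 2 weeks against 1 week (horizontal axis), 1 point per gene, with genes that rose (red) or fell (blue) at least 2-fold in GS cells. Most red points lie left of 0, most blue points right of it, and Mpzl2, Bcl6b, Trf, Mcam and Lhx1 lie among the 104 that rose in both.

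The 104 genes that rose in both comparisons included members of the GDNF and undifferentiated lists. Bcl6b rose by 2.57 ± 0.11 in GS cells after 1.80 over the second week, Lhx1 by 1.40 ± 0.10 after 2.01, Mcam by 1.59 ± 0.07 after 1.48 and Etv5 by 1.67 ± 0.07 after 0.70. Named after their values were seen, Ptpn13, a protein phosphatase gene, rose by 2.09 ± 0.09 after 1.24, Epha2, an ephrin receptor gene, by 1.86 ± 0.15 after 0.67, Tcf15, a helix-loop-helix gene, by 1.73 ± 0.10 after 0.53, and Hunk, a kinase gene, by 1.77 ± 0.08 after 0.94. Tcf15 measured 95.3 and 85.2 at 0 weeks, 119 and 99 at 1 week, 147 and 168 at 2 weeks, 121 and 114 at 3 weeks and 388 and 393 in GS cells, with the GS cell arrays above all others. Gmpr, Tmem59l, Dock6, Arhgap26 and Slc9a3r1, also named after their values were seen, rose in both, in GS cells by 2.08 ± 0.10, 1.80 ± 0.10, 1.61 ± 0.10, 1.58 ± 0.09 and 1.58 ± 0.07. Among the lists, second-week medians were 0.41 for GDNF-responsive and 0.69 for undifferentiated spermatogonial genes, against -2.62 for fibroblast, -0.90 for ERK feedback and -1.34 for immediate early genes. DNA replication, mitosis and PIWI pathway genes had second-week medians of 1.31, 1.63 and 1.60 and moved by 0.45, 0.19 and -0.044 from 3 weeks to GS cells.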

How the data were processed

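RNA was labelled and hybridised to 10 Affymetrix MoGene-1_0-st-v1 arrays (5 groups of 2), annotated by the submitters with na32 on mm9, per the file headers. The deposited values are linear intensity per transcript cluster. No source used here states how background was corrected or how probes were summarized and scaled. The authors also deposited group means and a fold change of 3 weeks over 0 weeks as a linear ratio. Their 3 week means equalled the geometric means of the 2 arrays to a relative gap of 8.6e-07, and the fold was not used further.

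Of 28856 clusters, 22439 carried 1 gene symbol, 2815 several and 3602 none. The 20200 symbols were matched to RefSeq names (17440 current, 2024 updated, 736 kept as given). The brightest cluster stood for each gene, which left 20174 genes, of which 1333 had several clusters. Another 701 clusters had values equal to those of some other cluster. Signals were set to a floor of 1 (0 values lay under it) and log2 values were fitted with limma 3.58.1 in R 4.3.3, with 5 groups in 1 model and eBayes (5 residual and 4.39 prior degrees of freedom, median SD within groups 0.0908). The number of arrays limits the precision, and no label gives a scan date or batch. The fit was tested on simulated data.

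Genes named are a panel of 20, the 12 largest rises and 12 largest falls whose groups did not overlap, and, per list, the 5 (or fewer) members with the largest change among those that passed. A few genes that the rule names are not reported here. Others are marker genes given as a check, or are said to have been named after their values were seen. Members, gene lists and tests were chosen with earlier results of these data known. Alternatives were scaling by quantiles, medians or cyclic loess, a mean signal of at least 100, cluster averages, trended robust eBayes, the 4 arrays alone, a floor of 32, at least 2-fold changes, a replicate block and leaving out each array. Promoter windows (250 bases before to 50 after the start) and microRNAs are from RefSeq on GRCm38.p6. Of the genes tested 14938 had a window. No coordinates of array clusters are given.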

Additional observations from a re-analysis of the deposited data

How the results depend on the processing

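Counts of genes depended on the setting more for falls than for rises. Rises numbered 4541 with cyclic loess scaling, 4709 in a fit of the 4 arrays alone and 6880 with median scaling. With cyclic loess scaling 481 list members rose and 209 fell. Against 6038 rises there were 720 of at least 2-fold, and 5044 to 5777 when 1 array was left out. Against 3470 falls there were 1161 with a mean signal of at least 100, 1974 in a fit of the 4 arrays alone, 196 of at least 2-fold, and 2264 to 4311 when 1 array was left out, the lowest without the second GS cell array. Of list members 615 rose (151 at least 2-fold, 540 to 591 without 1 array), and 153 fell (89 with a mean signal of at least 100, 81 in the 4 arrays alone, 5 at least 2-fold, 104 to 203 without 1 array). Of olfactory and vomeronasal genes 998 fell (223 with a mean signal of at least 100, 130 at least 2-fold, 865 to 979 without 1 array). The second-week median of all genes that rose was -0.259 (-0.359 with cyclic loess scaling), and of all that fell 0.237 (0.394 with a mean signal of at least 100). List medians changed sign for differentiating spermatogonia with cyclic loess scaling (-0.031), for checkpoint genes without the second 3 week array (-0.055 to 0.087 without 1 array), and for endothelial genes with a mean signal of at least 100 (0.06) and without the second GS cell array (-0.224 to 0.055 without 1 array). Of the 50 list medians 12 changed sign without 1 array and 12 under another scaling, all of them at most 0.187 in size, and 32 did neither. The mean signal filter and the fit of 4 arrays test fewer genes or use fewer arrays, and for the other settings the cause was not tested. With the replicate block 6638 genes rose and 4293 fell. Id4 then passed (0.311, adjusted p = 0.018), the only named gene whose call the block changed. No label says that the replicate numbers pair the arrays. Between groups other than 2 weeks, deviations of same-numbered arrays correlated at 0.31 to 0.584 (0.547 between 3 weeks and GS cells). Those of the 2 week arrays correlated with the others at -0.024 to -0.067. Whether same-numbered arrays share an effect was not tested further. Without a given background level, genes near the low end of the signal cannot be told from background.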
